A study of Mus musculus with 12 samples.

Results

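The histone landscape of a female mouse pancreatic cancer line was described from its H3K4me1, H3K4me3, H3K27ac and H3K27me3 region lists. The line was chosen because it is the KDM6A-WT line with all 4 marks, and every region of its 4 lists was a member. These came to 140408 of the 313566 regions in the 11 lists of the series: 56076 for H3K4me1, 24492 for H3K4me3, 29284 for H3K27ac and 30556 for H3K27me3. The series holds 12 libraries of cell lines from mouse pancreatic tumours, each sequenced on a Genome Analyzer. Of these, 11 are chromatin immunoprecipitations with a list each, and 1 is an input of the female KDM6A-WT line without a list. The cells were grown in F12/DMEM with EGF and were not treated. No age or Cre driver is given in the labels. The 4 mark libraries share the genotype field KDM6A-WT and a title naming the female line. Their cell type field, like that of all other libraries, describes a line from a K6A null cancer, so WT is used here as the genotype field gives it. For comparison, 3 further lists were used, KDM6A and MLL4 of the same female WT line and H3K4me1 of the male KDM6A-WT line. The KDM6A-KO lists were not analysed here. Each mark was listed from 1 library, so no value has a replicate check and no test between libraries was made. Markers of pancreatic and other cell types could not be examined, because the regions lie on the mm9 build and no gene annotation of that build was used.

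The 4 marks are chemical changes on the tail of histone H3. H3K4me3 is typical of promoters in use or poised for use, and H3K4me1 of enhancers and of the flanks of promoters. H3K27ac, an acetyl group, marks promoters and enhancers that are active, and H3K27me3, laid down by Polycomb repressive complex 2, marks repressed genes and often spreads over long domains. Acetyl and methyl groups on H3K27 exclude each other on 1 histone tail, although neighbouring nucleosomes, alleles or cells can differ. KDM6A removes methyl groups from H3K27. MLL4, also called KMT2D, is an H3K4 methyltransferase of enhancers and works in a complex that contains KDM6A.

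The marks differed in how long their regions were, how much they covered and how evenly their reads were spread. H3K27me3 regions were the longest, with a median of 6000 bp and quartiles of 4000 and 9800 bp, and they covered 270.9 Mb, or 10.3% of the 2638 Mb between the outermost regions. H3K4me1 regions had a median of 2800 bp (quartiles 1800 and 4600 bp) and covered 228.7 Mb, or 8.67% of that span. H3K27ac regions had a median of 3000 bp and covered 115.9 Mb (4.39%). H3K4me3 regions were the shortest, with a median of 2400 bp, and covered 73.9 Mb (2.80%). The upper tail set the repressive mark apart: 24.9% of the H3K27me3 regions reached 10 kb, against 6.35% for H3K4me1, 4.83% for H3K27ac and 1.38% for H3K4me3. The lists were joined with different steps, since the smallest gap between neighbours was 400 bp for H3K4me1 and H3K4me3, 600 bp for H3K27ac and 800 bp for H3K27me3. With neighbours within 800 bp joined in every list the H3K27me3 median was 6600 bp and the H3K4me3 median 2600 bp.

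The longest regions show what these lengths mean on the chromosome. The longest H3K27me3 region, chr15:102555401-102922200, ran for 366.8 kb with 17226 reads, and H3K4me1 covered 3.22% of it, H3K4me3 1.74% and H3K27ac 0.327%. The next, chr7:86625001-86795000 and chr6:83522601-83688400, were 170 kb and 165.8 kb long, and no other mark covered more than 2.41% of either. The longest H3K4me1 region, chr2:52719201-52874200, ran for 155 kb with 9856 reads and no H3K27me3. It contained 9 separate H3K4me3 regions, and H3K27ac covered 47.1% of it. The longest H3K27ac region was chr9:63541801-63611000, with 69.2 kb and 7009 reads, of which H3K4me1 covered 99.4% and H3K4me3 55.2%. H3K4me3 reached 34.4 kb at chr2:115870801-115905200, with 9186 reads, all of it inside H3K27ac and 60.5% of it inside H3K4me1. The H3K4me3 region with the most reads, 9976, was chr17:6958001-6989400. None of the 9 longest regions of the 3 active marks held any listed H3K27me3.

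Read density, the reads in a region divided by its length in kb, is comparable within a list but not between lists, because it scales with the depth of the library. Reads inside listed regions numbered 9956349 for H3K4me1, 17526099 for H3K4me3, 7165222 for H3K27ac and 6577142 for H3K27me3. The spread within a list differed widely. H3K27me3 was the most even, with quartiles of 19.4 and 24.3 reads per kb around a median of 21.5, so that the upper quartile was 1.25 times the lower. For H3K4me1 the corresponding ratio was 1.44 and for H3K27ac 2.12. H3K4me3 had quartiles of 52.5 and 302.5 reads per kb around a median of 131.2, a ratio of 5.76. Length and density were positively correlated in each of the 4 mark lists. The Spearman correlation across regions was 0.72 for H3K4me3, 0.45 for H3K4me1 and for H3K27ac, and 0.21 for H3K27me3. In H3K27me3 the rise was not steady. From the shortest to the longest of 4 length classes its median densities were 21.5, 20.2, 20.8 and 23.9 reads per kb. The correlations are descriptions over regions of 1 library per mark, and density shares the length in its denominator.

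H3K4me3 was the only 1 of the 4 lists with a pair of separate peaks in the histogram of read density. With 10 classes per step of 10 times, 2748 regions lay at 39.8 to 50.1 reads per kb and 3560 at 316 to 398, with a dip of 1031 regions at 126 to 158. The sparse regions below the dip numbered 12049, or 49.2% of the list, had a median length of 1600 bp and held 7.96% of the reads. The dense regions above it numbered 11412, or 46.6%, had a median length of 3800 bp and held 89.7% of the reads. The other marks take no part in the density of H3K4me3. H3K27ac overlapped 97.4% of the dense regions and 69.8% of the sparse ones. For H3K4me1 the shares were 90.9% and 72.3%, and for H3K27me3 14.0% and 16.8%. The groups differ in length, and within length classes the H3K27ac shares were closer. They were 89.8% for dense and 86.4% for sparse regions from 1800 to 2400 bp, 99.2% and 94.5% from 2600 to 4000 bp, and 99.9% and 98.5% from 4200 bp upward. Up to 1600 bp they were 61.5% and 55.5%. For H3K4me1 the direction turned in 2 of the 4 length classes, as given with the nesting of H3K4me3. Regions inside the dip had the highest share with H3K27me3, 29.3%. The sparse group depends on the threshold of the list, which is unknown here: 44.5% of all H3K4me3 regions lay below 100 reads per kb, but only 2.05% of the upper 50% of the list by reads.

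**Figure D1:**
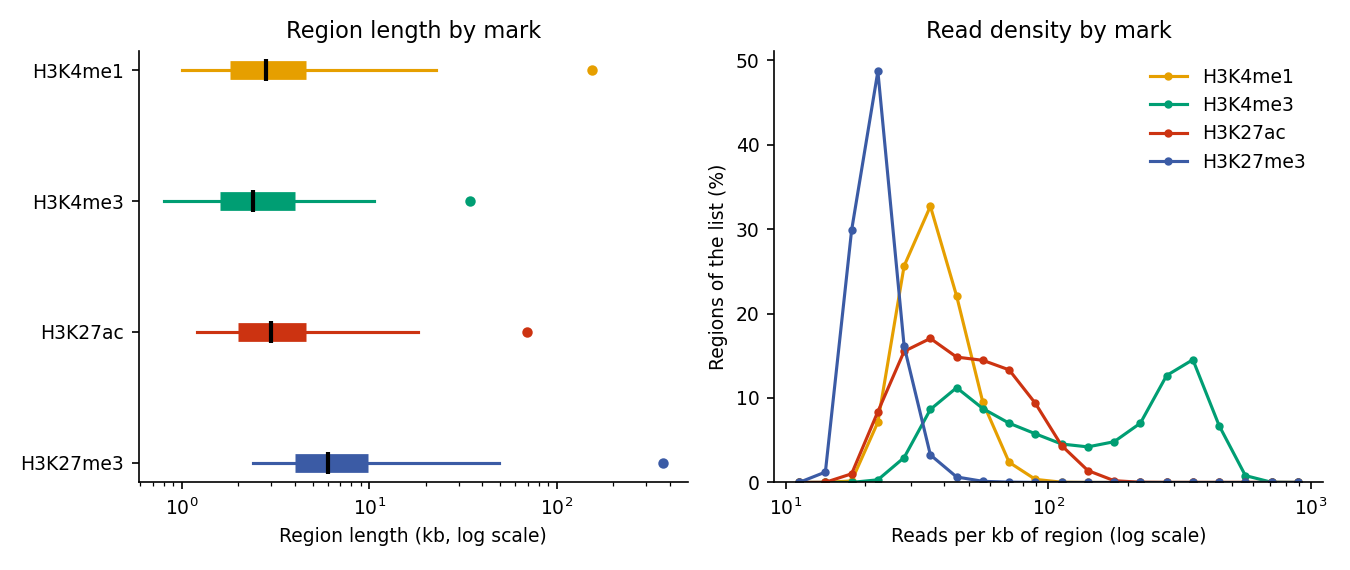
Length of the regions of each mark (left, kb on a log scale; box, quartiles; black line, median; thin line, 5th to 99th percentile; dot, longest region) and read density (right, reads per kb on a log scale, as a share of the list's regions in each density class). H3K27me3 has the longest regions and the narrowest density curve, and H3K4me3 alone shows separate peaks, at 39.8 to 50.1 and at 316 to 398 reads per kb.

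Overlapping or touching regions of the 4 lists merged into 79605 intervals that covered 517.8 Mb, or 19.6% of the span. An interval can therefore hold marks that touch without sharing a base. Each interval was scored for the marks that have a region in it. Brackets give exact 95% Clopper-Pearson intervals, which cover counting error only; regions of 1 library are not replicates. A single mark was present in 51689 intervals, 64.9% [64.6 to 65.3], 2 marks in 14.0%, 3 marks in 18.7% and all 4 in 1935 intervals, 2.43% [2.32 to 2.54]. The most frequent states were H3K4me1 alone, with 24123 intervals (30.3%), and H3K27me3 alone, with 23863 (30.0%). The active triple of H3K4me1, H3K4me3 and H3K27ac came next, with 13631 intervals (17.1% [16.9 to 17.4]) of a median 6000 bp. H3K4me1 with H3K27ac, the pair usual at active enhancers, was found in 5654 intervals (7.10%). The rarest of the 15 combinations was H3K27ac with H3K27me3 and nothing else, with 56 intervals.

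Counted by bases, each 200 bp window was scored for the marks at that window alone, and the order changed. Intervals with H3K4me1 alone had a median of 2400 bp and those with H3K27me3 alone 5600 bp. H3K27me3 without any other mark covered 254.4 Mb, 49.1% of all marked bases, and H3K4me1 alone 123.3 Mb, or 23.8%. The active triple covered 45.7 Mb at the same bases, although its intervals ran over 117.1 Mb. All 4 marks at the same 200 bp window covered 1.59 Mb, or 0.306% of marked bases. Of the 1935 intervals with all 4 marks, 63.5% [61.3 to 65.6] held any window with all 4, and in the rest the marks lay side by side. The contrast was between pairs of marks. H3K4me3 and H3K27ac shared a window in 99.7% of the 17500 intervals that held both, and H3K27ac and H3K27me3 in 78.1% [76.4 to 79.7] of 2457, with a median shared length of 800 bp in intervals of a median 12800 bp. Regions that only touched add to this contrast. Of the H3K27ac regions outside H3K27me3, 195 touched it, and of those outside H3K4me3, 9 did.

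The longest intervals of the states with H3K27me3 show how marks were placed within an interval. At chr11:96098801-96251200 a single H3K27me3 region of 152.4 kb held 4 H3K4me3 regions that covered 5.51% of it, and neither H3K4me1 nor H3K27ac was listed there. At chr5:115801601-115918800, 117.2 kb long, 3 H3K4me3 and 2 H3K27ac regions lay inside 1 H3K27me3 region. The longest interval with H3K27me3 alone was chr19:58236601-58366600, with 130 kb. Among the states without the repressive mark, H3K4me1 with H3K27ac reached 96.6 kb at chr15:53023201-53119800, where H3K27ac covered 6.21% of the H3K4me1 region.

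**Figure D2:**
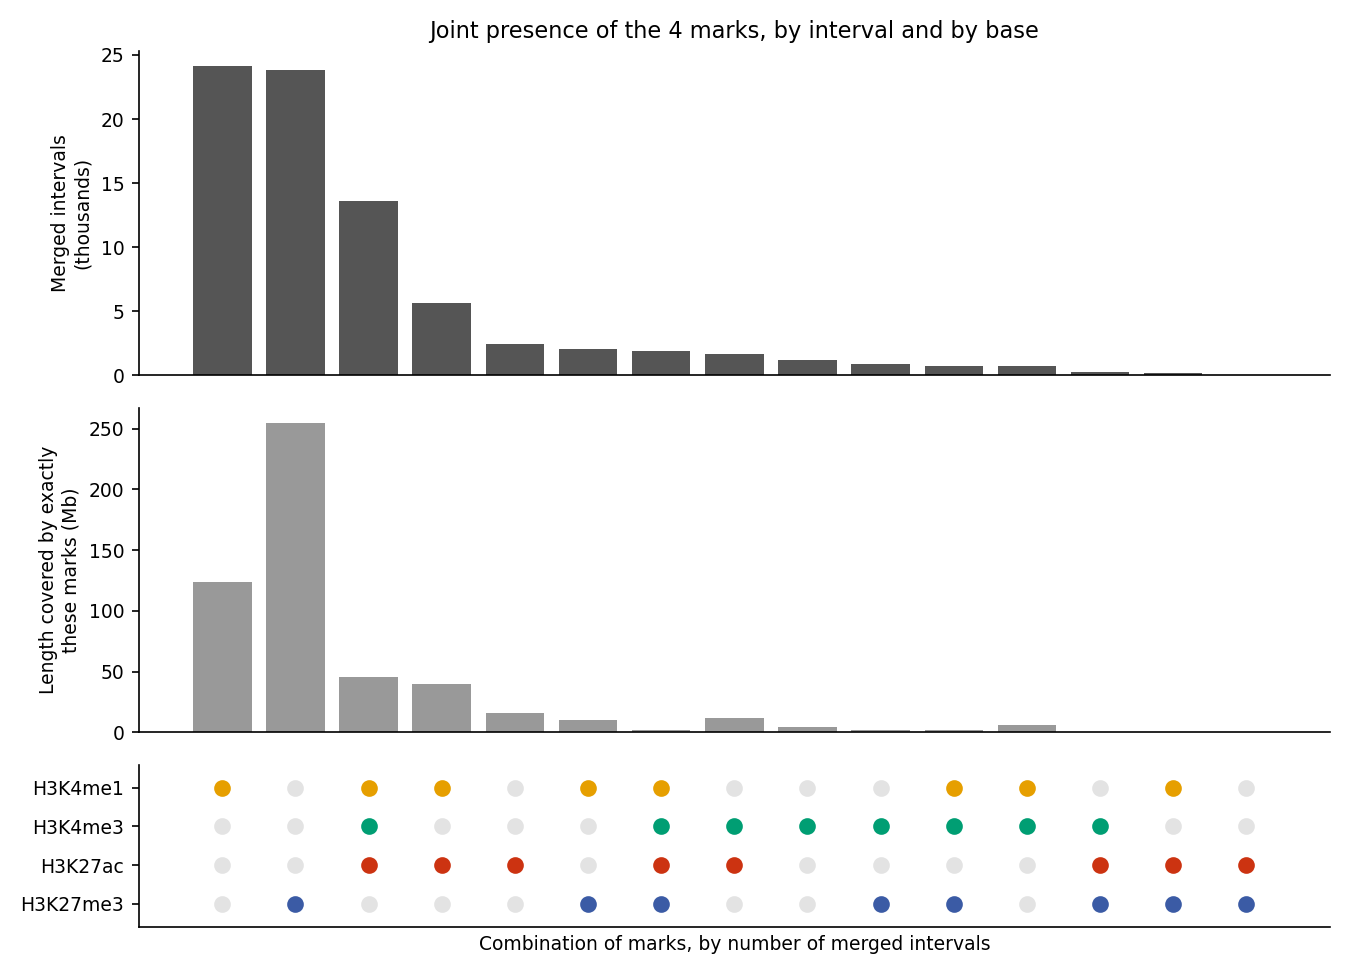
Merged intervals with each combination of marks (top, in units of 1000), length covered by exactly those marks at the same bases (middle, Mb), and the key to the combinations (bottom, filled dots are marks present). H3K4me1 alone and H3K27me3 alone have nearly the same number of intervals, 24123 and 23863, but 123.3 and 254.4 Mb of bases.

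Read density in a list differed with the other marks that overlapped, and the groups compared were not matched for length. H3K4me1 regions with no other mark, 43.4% of the list, had a median of 32.5 reads per kb. Those with H3K27ac had 40 reads per kb, and those with H3K27ac and H3K4me3 had 39.7. The highest median, 44.9, was in the 302 regions with H3K27ac and H3K27me3. For H3K27ac the steps were larger: 31.2 reads per kb beside H3K4me1 alone and 61.8 where both H3K4me1 and H3K4me3 overlapped, the state of 52.6% of its regions. Median lengths in these groups were 2600 and 3800 bp. Where H3K27me3 overlapped as well as both, the H3K27ac density was lower, at 47.4. H3K4me3 regions with both active marks, 67.5% of the list, had a median of 201.5 reads per kb, and the 5.14% with no other mark had 54.4. Their median lengths were 3000 and 1000 bp. With H3K4me1 as the only other mark the density was 55, and with H3K27ac as the only other mark 96.9. Where H3K27me3 overlapped as well as both active marks, the H3K4me3 density was higher, at 258.2. H3K27me3 went with no other mark in 78.7% of its regions, with 21.1 reads per kb, and its regions that held H3K4me3 alone had 25 reads per kb and a median length of 8600 bp against 5600 bp. Across the 20292 H3K4me3 regions overlapped by H3K27ac the densities of both marks went together, with a Spearman correlation of 0.48. From the sparsest to the densest of 4 equal classes of H3K4me3, the median H3K27ac density went from 45.4 to 77.8 reads per kb. H3K4me1 went the other way across 19875 overlapped regions, from 45.8 to 37.7 reads per kb, with a correlation of −0.23.

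Over the whole list, H3K4me3 lay inside H3K4me1 more often than across its border, but the arrangement differed with the density of H3K4me3. Of the 24492 H3K4me3 regions, 10726 lay wholly inside a single H3K4me1 region, 43.8% [43.2 to 44.4]. The H3K4me1 region then ran on for a median of 1400 bp on either side, 800 bp on the shorter and 2600 bp on the longer side. In 2587 regions, 10.6%, H3K4me1 covered both borders but was interrupted in between, so that it flanked H3K4me3. In 21.9% H3K4me1 covered 1 border, in 4.91% it lay inside H3K4me3 without reaching a border, and 18.9% of the regions had no H3K4me1. H3K27ac was placed against H3K4me1 in similar shares, with 40.3% wholly inside and 10.7% flanked. Against H3K27ac, H3K4me3 was wholly inside in 41.7%, with a median H3K27ac flank of 1000 bp on each side, and flanked in 0.429%. H3K4me3 lay wholly inside H3K27me3 in 10.2% of cases, with flanks of 4600 and 4400 bp. The flanked share was 4.55% with neighbours within 800 bp joined in every list and 3.40% with equal list sizes. The share of H3K4me3 regions overlapped by H3K4me1 was 81.1% in the full lists, 66.0% with the upper 50% of each list by reads and 55.2% with equal list sizes.

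Over 4 equal classes of H3K4me3 density the wholly enclosed share ran from 63.4% in the sparsest class (median 40 reads per kb, 1400 bp) through 59.0% and 33.6% to 19.2% in the densest (365 reads per kb, 4200 bp). The flanked share ran from 0.411% through 1.09% and 11.4% to 29.3% [28.2 to 30.5]. The share with 1 border covered ran from 7.35% through 10.9% and 30.6% to 38.6%. In the densest class it was thus above the enclosed share. Regions without H3K4me1 made up 4.36% of the densest class and 28.2% of the sparsest. H3K27ac overlapped 72.1%, 67.7%, 91.8% and 99.9% of the 4 classes in the same order, and H3K27me3 13.6%, 20.2%, 20.4% and 9.77%. Density and length go together in this list, and a long region is harder to enclose. Among regions of 2600 to 4000 bp, 75.3% of the 1540 below the dip were enclosed and 26.5% of the 4870 above it. Among those of 1800 to 2400 bp the shares were 70.9% and 39.5%, and from 4200 bp upward 74.7% and 18.0%. Flanking in the same 3 length classes was 2.08% against 13.6%, 0.802% against 2.48%, and 5.10% against 36.2%. The shift with density in both shares was thus present in these length classes. The share without H3K4me1 was not lower in dense regions of a given length throughout: it was 22.8% above the dip against 15.9% below it from 1800 to 2400 bp, 10.3% against 7.66% from 2600 to 4000 bp, and 2.25% against 4.03% from 4200 bp upward. Up to 1600 bp it was 37.8% against 38.7%. With H3K27me3 the length class mattered for direction: in all 4 length classes the dense regions overlapped it more, 14.3% against 7.01% from 2600 to 4000 bp, while over the whole list their share was the lower one.

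The profile around region centres shows the same arrangement base by base. Around the densest class of H3K4me3, H3K4me1 was listed at 63.4% of the centres and at 76.1% of the positions 1 kb away, and at 21.3% of those 20 kb away. In the other classes H3K4me1 was highest at the centre itself, at 70.7%, 71.1% and 73.1%. H3K27ac was listed at 99.6% of the centres in the densest class and at 71.8% in the sparsest. H3K27me3 was listed at 2.74% of the densest centres and at 11.8% of positions 20 kb away, a trough that the other classes lacked, with 12.2%, 18.2% and 14.5% at their centres. The densest class of H3K27ac had a dip of H3K4me1 too, with 70.5% at the centre and 79.9% at 1 kb.

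**Figure D3:**
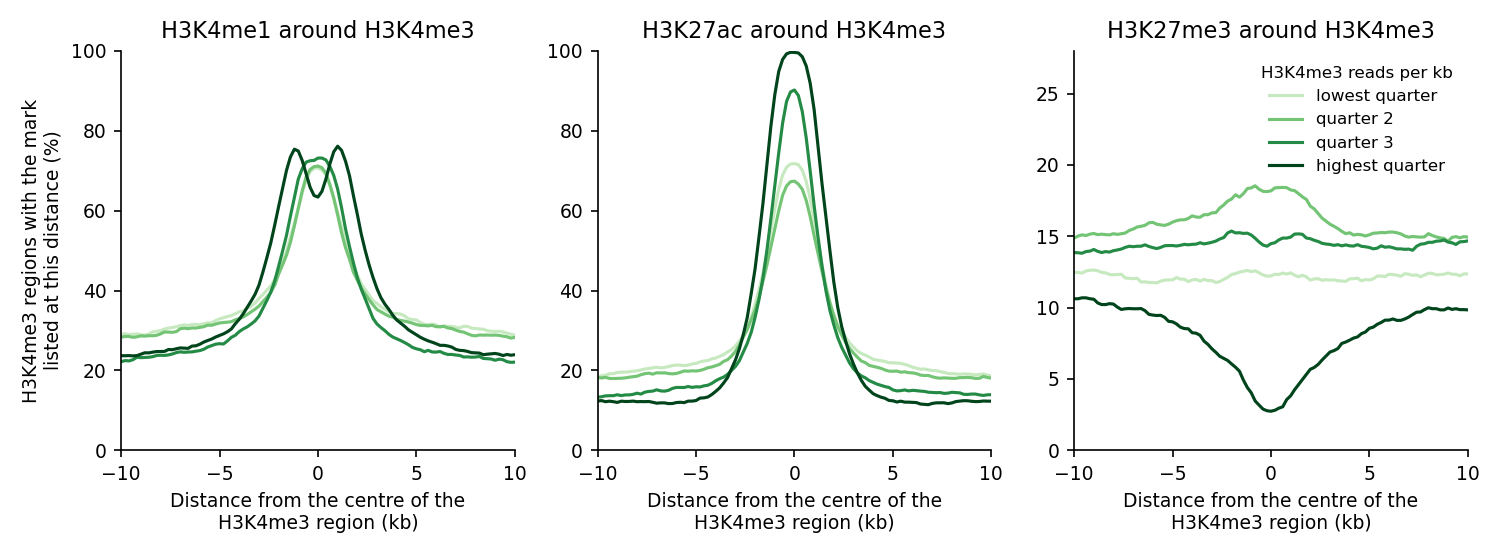
Share of H3K4me3 regions (%) at which H3K4me1, H3K27ac or H3K27me3 is listed at a given distance (kb) from the centre of the region, by 4 equal classes of H3K4me3 reads per kb; the H3K27me3 panel has its own vertical scale. The densest class has H3K4me1 shoulders of 76.1% around a centre of 63.4%, and 2.74% H3K27me3 at the centre.

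Short interruptions within a mark had different contents. The H3K4me1 list had 10856 gaps of up to 1 kb between neighbouring regions, and H3K27ac was listed in 37.1% [36.2 to 38.0] of them and H3K4me3 in 28.7% [27.9 to 29.6]. In H3K4me1 gaps of 2 to 5 kb the H3K4me3 share was 13.1%. The 6562 H3K27me3 gaps of up to 1 kb held H3K4me1 in 5.07%, H3K4me3 in 1.43% and H3K27ac in 1.30% of cases. Most short breaks in H3K27me3 thus had no active mark listed in them. Around the borders of H3K27me3 regions H3K27ac was listed at 3.45% of the positions 2 kb beyond the border and at 1.25% of those 2 kb within it. H3K4me1 went from 7.33% to 4.91% over the same step and H3K4me3 from 3.12% to 2.40%. Over the whole span these marks covered 4.39%, 8.67% and 2.80%. All borders were counted, and 21.5% of the H3K27me3 gaps were up to 1 kb and 10.4% from 1 to 2 kb. Part of the positions 2 kb beyond a border thus lay in the next H3K27me3 region.

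Regions without overlap lay closer to other active marks than to H3K27me3. Between active marks the median gap was 14200 to 30800 bp, and between an active mark and H3K27me3, in either direction, 39000 to 71400 bp. The 10249 H3K27ac regions without H3K4me3 had the nearest H3K4me3 region at a median of 14800 bp. This gap was 7800 bp where an overlap of at least 50% was asked for and 30200 bp with the upper 50% of each list by reads. The H3K4me1 regions without H3K27ac lay a median of 16200 bp from it, and 22.8% of them lay within 5 kb. H3K4me1 regions outside H3K27me3 were a median of 71400 bp from the nearest H3K27me3 region, and 41.2% of them lay over 100 kb away. From the side of H3K27me3 the nearest H3K4me1 region was a median of 39000 bp away, H3K4me3 51500 bp and H3K27ac 62400 bp. Such distances depend on how many regions the other list holds, but H3K27ac, the farthest, had more regions than H3K4me3. With equal list sizes the gap to H3K4me1 was 75400 bp, and with the upper 50% of each list by reads 60400 bp.

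The active marks overlapped H3K27me3 less than their covered shares would give if multiplied. The length shared by a pair of marks was divided by the product of their covered shares, which is arithmetic and not a test. Over the whole span this ratio was 0.256 for H3K27ac with H3K27me3, 0.578 for H3K4me1 and 0.759 for H3K4me3. It was below 1 on all 20 chromosomes for H3K27ac (0.130 to 0.432) and for H3K4me1 (0.369 to 0.951). For H3K4me3 it was below 1 on 14 of 20 and ranged from 0.480 on chromosome 11 to 2.94 on chromosome X, with 1.37 as the next highest. Among the active marks the ratios were 8.63 for H3K4me1 with H3K4me3, 8.72 for H3K4me1 with H3K27ac and 18.3 for H3K4me3 with H3K27ac. The span includes stretches where reads cannot be placed, which raises every ratio.

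At the megabase scale the same marks went together. Over 2629 whole bins of 1 Mb, the covered length of H3K27me3 and H3K4me3 had a Spearman correlation of 0.68 and a Pearson correlation of 0.45. The Spearman value was between 0.51 on chromosome 11 and 0.81 on chromosome 4 within chromosomes, and 0.62 over the 2414 bins with any mark. For H3K27me3 with H3K27ac it was 0.63 and with H3K4me1 0.61, and among the active marks 0.88 to 0.95. Bins share gene density and the ease of placing reads, so these are descriptions without a test. The median H3K27me3 cover of a bin was 0 where H3K4me3 was absent and ran through 0, 1.54%, 7.80% and 13.0% to 18.4% over 5 equal classes of the remaining bins by H3K4me3. Only 58 bins had H3K27me3 and no H3K4me3, against 486 with H3K4me3 and no H3K27me3. Multiplying the covered shares inside each 1 Mb bin, which takes this common distribution into account, lowered the ratios with H3K27me3 to 0.156 for H3K27ac, 0.369 for H3K4me1 and 0.440 for H3K4me3. The pair of marks on H3K27 was thus frequent in the same megabase and rare at the same bases.

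**Figure D4:**
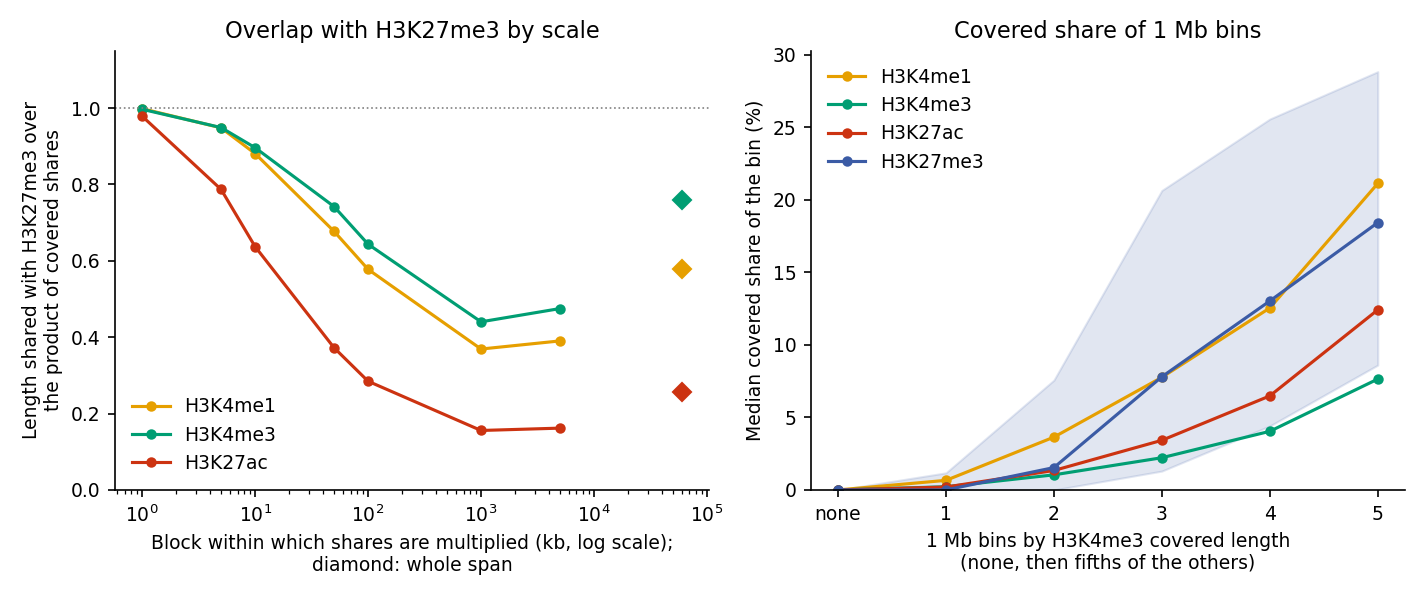
Left, length shared with H3K27me3 divided by the product of covered shares, with the product taken within blocks of the given size (kb, log scale) or over the whole span (diamonds); the dotted line is a ratio of 1, and small blocks tend to 1 by construction. Right, median covered share (%) of 1 Mb bins by H3K4me3 class, with the quartiles of H3K27me3 shaded: H3K27me3 runs from 0 to 18.4% while the left panel stays below 1.

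Single bins went against this common order. On chromosome 1, 76 to 77 Mb (76000001 to 77000000), H3K27me3 covered 41.5% and H3K4me3 was absent, with 0.14% H3K4me1. On chromosome 12, from 54000001 to 55000000, H3K27me3 covered 56.9% with no H3K27ac. The reverse was seen on chromosome 16, from 24000001 to 25000000, where H3K4me1 covered 40.7% with no H3K27me3. The largest H3K27me3 cover, 74.1%, was on chromosome 11 from 96000001 to 97000000, where H3K4me3 still covered 9.10% and H3K27ac 9.02%. The bin with the most H3K4me3, 26.6%, was on chromosome 10 from 79000001 to 80000000, with 28.5% H3K27me3. H3K27me3 was the most concentrated mark, with 50% of its length in 341 bins and 823 bins (31.3%) at 0. For H3K4me1 these were 462 bins and 386.

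Chromosomes differed more in H3K27me3 than in the active marks. Its covered share ran from 2.82% on chromosome 16 to 19.1% on chromosome 11, a 6.77-fold range over the 19 autosomes, against 2.40-fold for H3K4me1, 2.71-fold for H3K4me3 and 2.57-fold for H3K27ac. Set against H3K4me3, H3K27me3 covered 1.37 times as much on chromosome 16 and 6.40 times as much on chromosome 6. Chromosome X had the lowest cover of every mark, at 1.61% for H3K4me1, 1.04% for H3K4me3, 1.14% for H3K27ac and 1.37% for H3K27me3. Its median densities of 30 reads per kb for H3K4me1, 39.2 for H3K27ac and 19.5 for H3K27me3 were below those of every autosome, whereas H3K4me3, at 151.5, lay inside the autosomal range.

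Chromosomes 15 and 19 stood apart in several marks at once. The median H3K4me1 density was 41.2 and 41.6 reads per kb there, against 34.4 to 36.2 on the other 17 autosomes. H3K27ac had 50.9 and 55.1 against 41.5 to 49.4, and H3K27me3 23.5 and 24.0 against 20.1 to 22.0. H3K4me3 differed less clearly, since chromosome 15, at 140 reads per kb, lay inside the range of the others (94.1 to 178.8) and chromosome 19, at 191.5, above it. Regions were also longer there, with H3K4me1 medians of 3800 and 3900 bp against 2600 to 2800, and H3K27me3 medians of 8600 and 9000 bp against 5000 to 6600. An active and a repressive mark thus moved the same way on these chromosomes, and what sets them apart was not tested. Without them, H3K4me3 regions wholly inside H3K4me1 made up 42.3% in place of 43.8%.

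**Figure D5:**
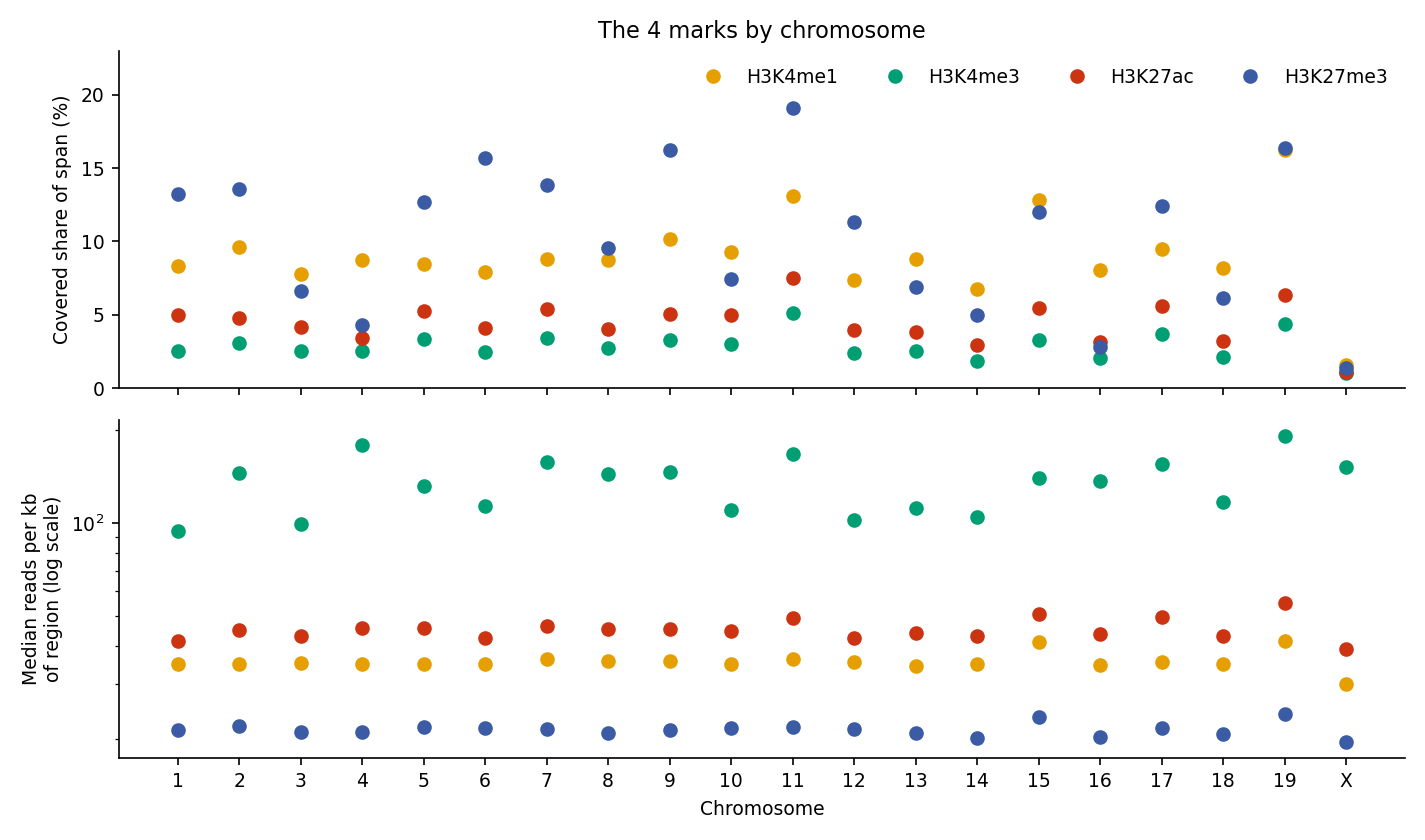
Covered share of each chromosome's span (top, %) and median read density of its regions (bottom, reads per kb on a log scale) for the 4 marks, 1 point per mark and chromosome. H3K27me3 cover varies 6.77-fold over the autosomes, X is lowest for every mark, and H3K4me1, H3K27ac and H3K27me3 densities are highest on chromosomes 15 and 19.

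Lists that took no part in defining the combinations differed between them. KDM6A, with 2847 regions, overlapped 6.41% [6.01 to 6.84] of the active triple intervals, 3.68% of those with H3K4me1 and H3K27ac, 1.65% of those with H3K4me1 alone and 0.260% [0.199 to 0.333] of those with H3K27me3 alone. MLL4, with 2130 regions, gave 6.44%, 2.79%, 0.759% and 0.264% for the same states. States that joined H3K27me3 to active marks varied. The 227 intervals with H3K4me1, H3K27ac and H3K27me3 had 7.49% [4.42 to 11.7] for KDM6A and 7.93% [4.77 to 12.2] for MLL4. With all 4 marks the shares were 4.81% and 5.84%, and with H3K4me3 and H3K27me3 only 0% and 0.110%. Long intervals are overlapped more easily, so the centres of the regions were also counted per Mb of bases in each state. KDM6A had 15.2 centres per Mb in the triple, 8.49 with H3K4me1 and H3K27ac, 4.60 with H3K4me1 alone, 0.377 with H3K27me3 alone and 0.489 in unmarked sequence. MLL4 had 17.6, 6.38, 2.24, 0.358 and 0.262. Among these 3 active states the order was the same in both lists. With all chromosomes counted, the state with H3K27me3 alone lay near the unmarked level. Bases with H3K4me1, H3K27ac and H3K27me3 had 12.9 KDM6A and 21.0 MLL4 centres per Mb, from 8 and 13 centres. Bases with all 4 marks had 5.67 and 6.30, from 9 and 10 centres. Bases with H3K4me3 and H3K27ac but no other mark took a different place in each list. Their 6.56 MLL4 centres per Mb, from 77 centres, were above H3K4me1 with H3K27ac. Their 1.96 KDM6A centres per Mb, from 23, were below H3K4me1 alone. By interval this state was low in both lists. Of its 1695 intervals MLL4 overlapped 0.059% (1 interval) and KDM6A 0.354% (6 intervals). Most of the 77 MLL4 centres thus lay in intervals that also held another mark. Unmarked bases held 1037 of the KDM6A centres (36.4%) and 555 of the MLL4 centres (26.1%). These lists are short, and a region absent from them may carry signal under the threshold. Without chromosomes 15 and 19 the shares of triple intervals were 5.31% for KDM6A and 5.53% for MLL4, for H3K4me1 alone 1.099% and 0.476%, and for H3K27me3 alone 0.0616% and 0.0484%. Of these, both values for H3K27me3 alone, both for H3K4me1 alone and neither for the triple moved by 1.5 times or more. The fall was largest for H3K27me3 alone, where most of the overlaps with KDM6A and MLL4 thus lay on chromosomes 15 and 19. The centres per Mb above include these chromosomes.

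The share of female regions overlapped by H3K4me1 of the male WT line was higher where female H3K4me1 came with H3K27ac. Male H3K4me1 overlapped 63.3% [62.7 to 63.9] of the female H3K4me1 regions without any other mark, 94.9% [94.4 to 95.5] of those with H3K27ac and 91.6% of those with H3K27ac and H3K4me3. Where H3K27me3 was the only other mark the share was 70.5%. These groups were not matched for length or density, and longer regions are overlapped more easily. Their medians were 2400 bp and 32.5 reads per kb with no other mark, and 3400 bp and 40 with H3K27ac. With H3K27ac and H3K4me3 they were 3600 bp and 39.7, and with H3K27me3 as the only other mark 2200 bp and 32.6. Male H3K4me1 also lay where the female list had none: it overlapped 61.9% of the intervals with H3K27ac alone, 59.1% of those with H3K4me3 and H3K27ac, and 26.4% of those with H3K4me3 alone. H3K27me3 alone was overlapped in 9.94% of 23863 intervals. The male list covered 9.82% of the span, which is a share of bases and not of intervals. Counted from the male list, 17626 of its region centres (27.4%) lay in bases with female H3K4me1 alone, 10596 (16.5%) in the active triple and 16751 (26.1%) in bases with none of the 4 female marks. Sex and line cannot be told apart in this comparison, with 1 library of each.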

How the data were processed

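Chromatin immunoprecipitation libraries of the female KDM6A-WT line (H3K4me1, H3K4me3, H3K27ac, H3K27me3, KDM6A, MLL4) and H3K4me1 of the male KDM6A-WT line were used, grouped by antibody, sex and genotype as labelled, with 1 library per group. The submitters' processing notes name mm9, SICER 1 and Bowtie 1.1.2 without stating a role. The lists deposited by the authors give chromosome, start, end and a whole number, taken from its values and the layout of SICER regions as the count of reads per region. Each library used here has its own list. The threshold, the mapped reads and whether the input served as control are not given in the sources used here.

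All borders lay on 200 bp steps, so the genome was scored in 200 bp windows. An overlap needed at least 1 bp, but regions that touched were also merged into the same interval. Positions count from 1 in mm9. The reference tables describe another build, so no genes or sequences were assigned. The members, the rules and the lists were chosen with earlier results of these data known. Named regions were the 3 longest and the 3 with the most reads per mark, the longest interval per combination, the 3 bins with most cover per mark and the bin with the largest rank difference per pair of marks; the text gives the leading ones. The alternatives tried were the 50% of each list with the most reads, equal list sizes, joined neighbours, an overlap of 50%, autosomes alone, other bins and, chosen after seeing the data, bins with any mark and the omission of chromosomes 15 and 19. The split of H3K4me3 by length class and at the dip in density was also chosen after seeing the data.

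Scripts ran under Python 3.11.15 with numpy 2.4.6 and scipy 1.17.1, and figures drawn with matplotlib 3.10.9. Overlap counts were checked against bedtools 2.31.1, and 0 of 12 pairs differed. On simulated data the classes and gaps of 2000 of 2000 regions came back. Intervals are exact Clopper-Pearson at 95% and cover counting error only.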

Additional observations from a re-analysis of the deposited data

How the results depend on the processing

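Each of 20 values was recomputed under up to 9 settings, which gave 114 alternatives. Of these, 60 stayed within counting error or, for ratios and correlations, within the spread over chromosomes, and 54 moved further. A change of direction could be scored for the ratios and correlations only, and 0 of them changed direction. Shares, lengths and gaps have no direction in this sense. With the upper 50% of each list by reads, the median length was 3800 bp for H3K4me3 and 9800 bp for H3K27me3, and 2.05% of H3K4me3 regions lay below 100 reads per kb. In that setting the active triple made up 14.0% of merged intervals, single marks 66.4%, H3K4me3 wholly inside H3K4me1 26.1% and MLL4 overlap of the triple 9.32%. The gap from H3K27me3 to H3K4me1 was then 60400 bp and the ratio of H3K27me3 with H3K27ac 0.121. With every list reduced to 24492 regions, the H3K27me3 median was 7200 bp, single marks 59.8%, wholly inside 36.2%, the gap 75400 bp, the ratio of H3K27me3 with H3K4me1 0.440 and MLL4 overlap 9.04%. With neighbours within 800 bp joined, the H3K27me3 median was 6600 bp, the share below 100 reads per kb 43.9%, the triple 18.8%, single marks 62.1%, wholly inside 49.8% and the gap 40000 bp. At an overlap of at least 50% the triple was 8.03%, single marks 76.8%, the gap 27400 bp and MLL4 overlap 0.109%. This rule also gave 75.6% of H3K4me3 regions overlapped by H3K4me1, and a gap of 7800 bp from H3K27ac to H3K4me3. Both gaps under this rule include regions overlapped by less than 50%, entered with a gap of 0. KDM6A then overlapped 0.0625% of the triple intervals and male H3K4me1 84.1%. For these shares and that of MLL4, the list had to cover at least 50% of the merged interval. KDM6A and MLL4 regions had a median of 1400 bp, and triple intervals a median of 6000 bp under the 1 bp rule. Their values near 0 were thus largely set by length. The remaining values do not use this rule and have none under it. Wholly inside was 44.7% on autosomes alone and 42.3% without chromosomes 15 and 19, where MLL4 overlap was 5.53%. In bins of 5 Mb the H3K27me3 and H3K4me3 correlation was 0.80. The causes of these moves were not tested. No paired analysis was possible because each group holds 1 library and no test was made. Library depth, control and threshold were not known, so an absent region may hold signal, and levels were not compared between marks.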
